A study of Homo sapiens with 12 samples.

Results

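The genes described here encode 8 transcription factors of mesenchymal cells: TWIST1, SNAI2, PRRX1, FOXF1, RUNX1, RUNX2, FOSL2 and TEAD1. They were followed through 6 lists of genomic regions in hg19, and a region was taken when it lay in a gene or within 20 kb of it. In all, 219 of the 169273 deposited regions met this rule: 166 of 84471 in the IMR90 H3K18ac list, 44 of 65946 in the H1 H3K18ac list and 9 in the 4 BrdU lists. The gene windows together spanned 1184 kb. Gene ends were given to 1 kb, so each distance from a 5′ end below carries that uncertainty.

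The study mapped newly synthesised DNA and an acetylated histone to relate replication to an epigenetic mark. Newly made DNA was labelled with the thymidine analogue bromodeoxyuridine (BrdU), captured with an antibody against BrdU, and sequenced. H3K18ac, the acetylation of lysine in the tail of histone H3 that the paralogous enzymes EP300 and CREBBP deposit, was mapped by chromatin immunoprecipitation from 5000000 cells. H1 is an embryonic stem cell line, IMR90 a line of lung fibroblasts and Saos-2 an osteosarcoma line. The H1 control BrdU culture received non-targeting siRNA and the H1 knockdown BrdU culture siRNA against EP300 and CREBBP. Both had 10 µM of HA 1077 in the medium and were collected after 72 h. The H1 cells for H3K18ac and the IMR90 and Saos-2 cells had no siRNA. H1 was used between passages 35 and 45 and IMR90 between passages 7 and 12. Each of the 6 groups is 1 library of 1 line in bulk culture, so no difference between groups could be tested and no p-values are given. Saos-2 has no H3K18ac list here. For the BrdU pulse, its length is not given in the sources used here, nor is any cell-cycle selection. The lists hold no expression values, so whether these genes were transcribed in the 3 cell lines was not analysed here.

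Mesenchymal cells such as fibroblasts keep their identity through a shared set of DNA-binding factors. TWIST1 and SNAI2 repress epithelial genes and drive the epithelial-mesenchymal transition. PRRX1 and FOXF1 mark lineages of embryonic mesenchyme, and RUNX1 and RUNX2 bind DNA through the Runt domain and govern blood and bone formation. FOSL2, an AP-1 subunit, and TEAD1, the DNA-binding partner of YAP and TAZ, carry growth and mechanical signals to many fibroblast enhancers. H3K18ac is found at active promoters and enhancers, and at cell identity genes it often extends over long stretches.

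All 8 genes had a greater length of H3K18ac regions in the fibroblasts than in the stem cells. The IMR90 list covered 115.2 kb of the windows and the H1 list 7.9 kb, a ratio of 14.6, where the whole lists had a ratio of 2.51. Covered length was at least 2 times higher in IMR90 at 8 of the 8 genes, and at 0 of them in H1. Of all 22029 tiles of 100 kb with a region of any list, 39.3% passed the same rule in favour of IMR90 and 42.3% in favour of H1. These tiles are spread along the genome and were not centred on genes, so they describe the lists rather than other genes. The depth of the libraries is unknown, and its part in these differences was not tested. SNAI2 and PRRX1 had IMR90 regions and no H1 region at all, a state found in 15.4% of the 100 kb tiles. Their windows are 44 and 117 kb wide, and the share in tiles of those widths was not analysed here. At the other 6 genes the ratio of covered length ran from 2.32 at FOSL2 to 44.5 at FOXF1, with a median of 11.8. FOSL2 alone of these lay below the whole-list ratio of 2.51. It passed the rule of 2 times without exceeding the difference between the lists as a whole.

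**Figure D1:**
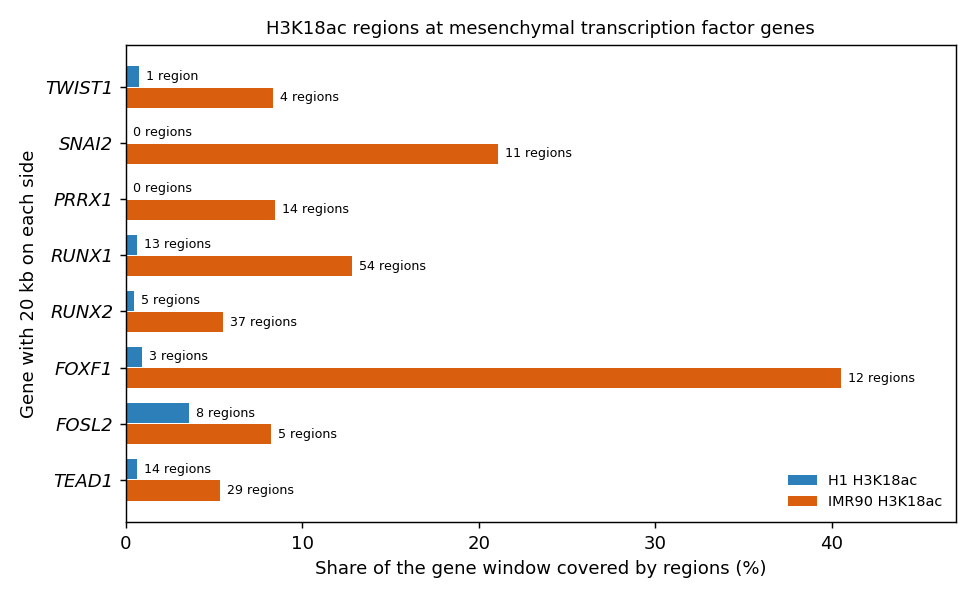
Share of each gene window (the gene with 20 kb on each side) covered by H3K18ac regions, in percent, for H1 (blue) and IMR90 (orange), with 1 library per bar and the number of regions beside it. FOXF1 reaches 40.5% and SNAI2 21.1% in IMR90, and no gene exceeds 3.55% in H1.

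TWIST1, a basic helix-loop-helix factor of neural crest and limb mesenchyme, lies on the minus strand at chr7:19155000-19157000. It held 4 IMR90 regions over 3.5 kb of its 42 kb window and 1 H1 region of 300 bp. The IMR90 region nearest to the 5′ end was also the longest, at chr7:19157201-19158700, 1500 bp just upstream of the gene. The only H1 region, chr7:19156201-19156500, lay in the gene and wholly inside an IMR90 region. Of tiles of the same width, 8.28% had at least as much IMR90 coverage and 39.1% at least as much H1 coverage. TWIST1 had the fewest IMR90 regions of the 8 genes.

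SNAI2, a zinc-finger repressor of E-cadherin also called SLUG, lies on the minus strand at chr8:49830000-49834000. It held 11 IMR90 regions over 9.3 kb, or 21.1% of its window, and 0 H1 regions. The IMR90 regions formed 2 clusters, a cluster being regions at most 5 kb apart. The first had 5 regions with 3.9 kb covered, from 3.8 kb upstream to 3.3 kb downstream of the 5′ end, and so lay over most of the gene. The second lay beyond the 3′ end, 16.2 to 23.7 kb from the 5′ end, with 6 regions and 5.4 kb covered. It held the longest region, chr8:49814801-49817200, ranked 696 by the authors' score in its list. The region nearest to the 5′ end, 700 bp long, began 101 bp upstream of it. Only 1.35% of tiles of this width had as much IMR90 coverage.

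PRRX1, a paired-type homeobox factor of limb and craniofacial mesenchyme, lies on the plus strand at chr1:170632000-170709000. It held 14 IMR90 regions over 9.9 kb and 0 H1 regions. Most of that length fell at 2 places. At the 5′ end, 2 regions covered 3.6 kb, with chr1:170631001-170631900, the nearest to it, 100 bp upstream, and chr1:170632201-170634900, of 2700 bp, in the gene. Inside the gene, 43.9 to 54.1 kb from the 5′ end, 4 regions covered 5.3 kb, among them the longest, chr1:170677501-170680700, at 3200 bp and rank 817. The rest were short: 8 of the 14 regions were a single 100 bp window. As much IMR90 coverage was found in 4.19% of tiles of this width.

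FOXF1, a forkhead factor of lung and gut mesenchyme, lies on the plus strand at chr16:86544000-86548000 and had the densest coverage of the 8 genes. Its 12 IMR90 regions made 1 cluster that ran from 19.1 kb upstream to 7.4 kb downstream of the 5′ end and covered 17.8 kb, or 40.5% of the window. In H1 it held 3 regions over 0.4 kb, which were 100 to 200 bp long. The longest IMR90 region, chr16:86537201-86543300, was 6100 bp long and ranked 20 of 84471 by score. It ended 0.7 kb upstream of the 5′ end. RefSeq (GRCh38.p14) lists the long noncoding gene FENDRR as a neighbour of FOXF1. The other 2 of the best-ranked IMR90 regions were 3400 bp each, with ranks 216 and 191. They covered FOXF1 from 0.3 kb downstream of its 5′ end and the sequence after it. The region nearest to the 5′ end was one of 200 bp that lay 200 bp upstream of it. In H1, 2 of the 3 regions lay inside the 6100 bp IMR90 region, 1.0 to 2.4 kb upstream of the gene, and chr16:86542801-86543000 was both the longest and the nearest to the 5′ end. Only 0.158% of tiles of this width reached the IMR90 coverage, and 32.9% reached the H1 coverage.

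RUNX1, a Runt-domain factor of blood stem cells that fibroblasts also use, lies on the minus strand at chr21:36160000-36422000 and had the most covered length. In IMR90 it held 54 regions over 38.7 kb (12.8% of the window), and in H1 13 regions over 1.9 kb (0.629%). As much coverage was found in 0.63% of tiles of its width in IMR90 and in 30.6% in H1. The IMR90 regions made 13 clusters along the gene. The cluster with most covered length, 9.5 kb in 7 regions, lay 157.3 to 169.2 kb downstream of the 5′ end and held the longest region, chr21:36256001-36260900, at 4900 bp and rank 182. The densest group of H1 regions was found at the same place, with 4 regions 159.7 to 162.9 kb from the 5′ end. All 4 overlapped IMR90 regions, and the longest H1 region of the gene, chr21:36259101-36259400, was one of them. The 5′ end itself had 3 IMR90 regions with 4.7 kb covered, among them chr21:36418801-36421700, and none in H1, where the nearest region, chr21:36399401-36399500, lay 22.5 kb away. The IMR90 region nearest to the 5′ end was 100 bp long, began at that position and lay upstream.

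RUNX2, the master factor of osteoblast differentiation, lies on the plus strand at chr6:45296000-45519000. It held 37 IMR90 regions over 14.4 kb and 5 H1 regions over 1.2 kb. It was the only one of the 8 genes without an IMR90 region within 2 kb of the 5′ end. The H1 region nearest to the 5′ end, chr6:45288101-45288200, was a single window 7800 bp upstream of it. The nearest IMR90 region, chr6:45344801-45345100, lay 48.8 kb downstream, in a cluster at 48.8 to 50.7 kb where both lists had regions. There the H1 list had its longest RUNX2 region, chr6:45345001-45345600, at 600 bp and rank 4003, with a second region of 300 bp, and the IMR90 list had 3 short regions of 200 to 700 bp. These H1 regions made up 0.9 of the 1.2 kb covered in H1. RefSeq (GRCh38.p14) lists SUPT3H as a protein-coding gene that overlaps RUNX2. Which gene the regions of this cluster belong to was not analysed here. The next IMR90 cluster, at 93.1 to 95.7 kb, held 2 regions, of 500 and 1600 bp, and no H1 region. The largest, at 105.2 to 126.8 kb, held 15 regions with 7.5 kb covered, again with no H1 region, and the longest region of the gene in IMR90, chr6:45404901-45406900. As much IMR90 coverage was found in 6.21% of tiles of this width, and as much H1 coverage in 39.6%.

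FOSL2, the AP-1 subunit also called FRA2, lies on the plus strand at chr2:28616000-28638000 and differed least between the lines. IMR90 had 5 regions over 5.1 kb and H1 8 regions over 2.2 kb. It was the only gene with more regions in H1 than in IMR90. In both lines the marked stretch surrounded the 5′ end: from 3.2 kb upstream to 3.5 kb downstream in IMR90, and from 3.7 kb upstream to 1.2 kb downstream for 6 of the H1 regions. The longest H1 region of all 8 genes was here, chr2:28613501-28614500, at 1000 bp and rank 2166, and it lay wholly inside the longest IMR90 region, chr2:28612801-28614900. The IMR90 region nearest to the 5′ end, 400 bp long, began at it, and the H1 region nearest to it was 100 bp long and lay 301 bp downstream. FOSL2 was also the gene whose H1 coverage ranked highest among tiles of its own width: 4.55% of them had as much, against 6.58% for its IMR90 coverage.

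TEAD1, a TEA-domain factor, lies on the plus strand at chr11:12696000-12966000. IMR90 had 29 regions over 16.5 kb and H1 14 regions over 1.9 kb. In IMR90 the first 22 kb of the gene, with 1 kb before it, formed a cluster of 13 regions with 10.6 kb covered, and the longest region, chr11:12696901-12699500, was part of it. The H1 list had a cluster at the same 5′ end, with 5 regions and 0.6 kb covered over 6.8 kb. Of the 14 H1 regions, 10 were a single 100 bp window. The regions nearest to the 5′ end were one of 600 bp in IMR90, 400 bp upstream, and one of 100 bp in H1, 201 bp downstream. The 3 H1 regions farthest into the gene, 171.6 to 189.5 kb from the 5′ end, had no IMR90 region nearer than 16400 bp, and the last, chr11:12885201-12885500, was the longest H1 region of the gene. As much IMR90 coverage was found in 6.12% of tiles of this width, and as much H1 coverage in 31.3%.

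**Figure D2:**
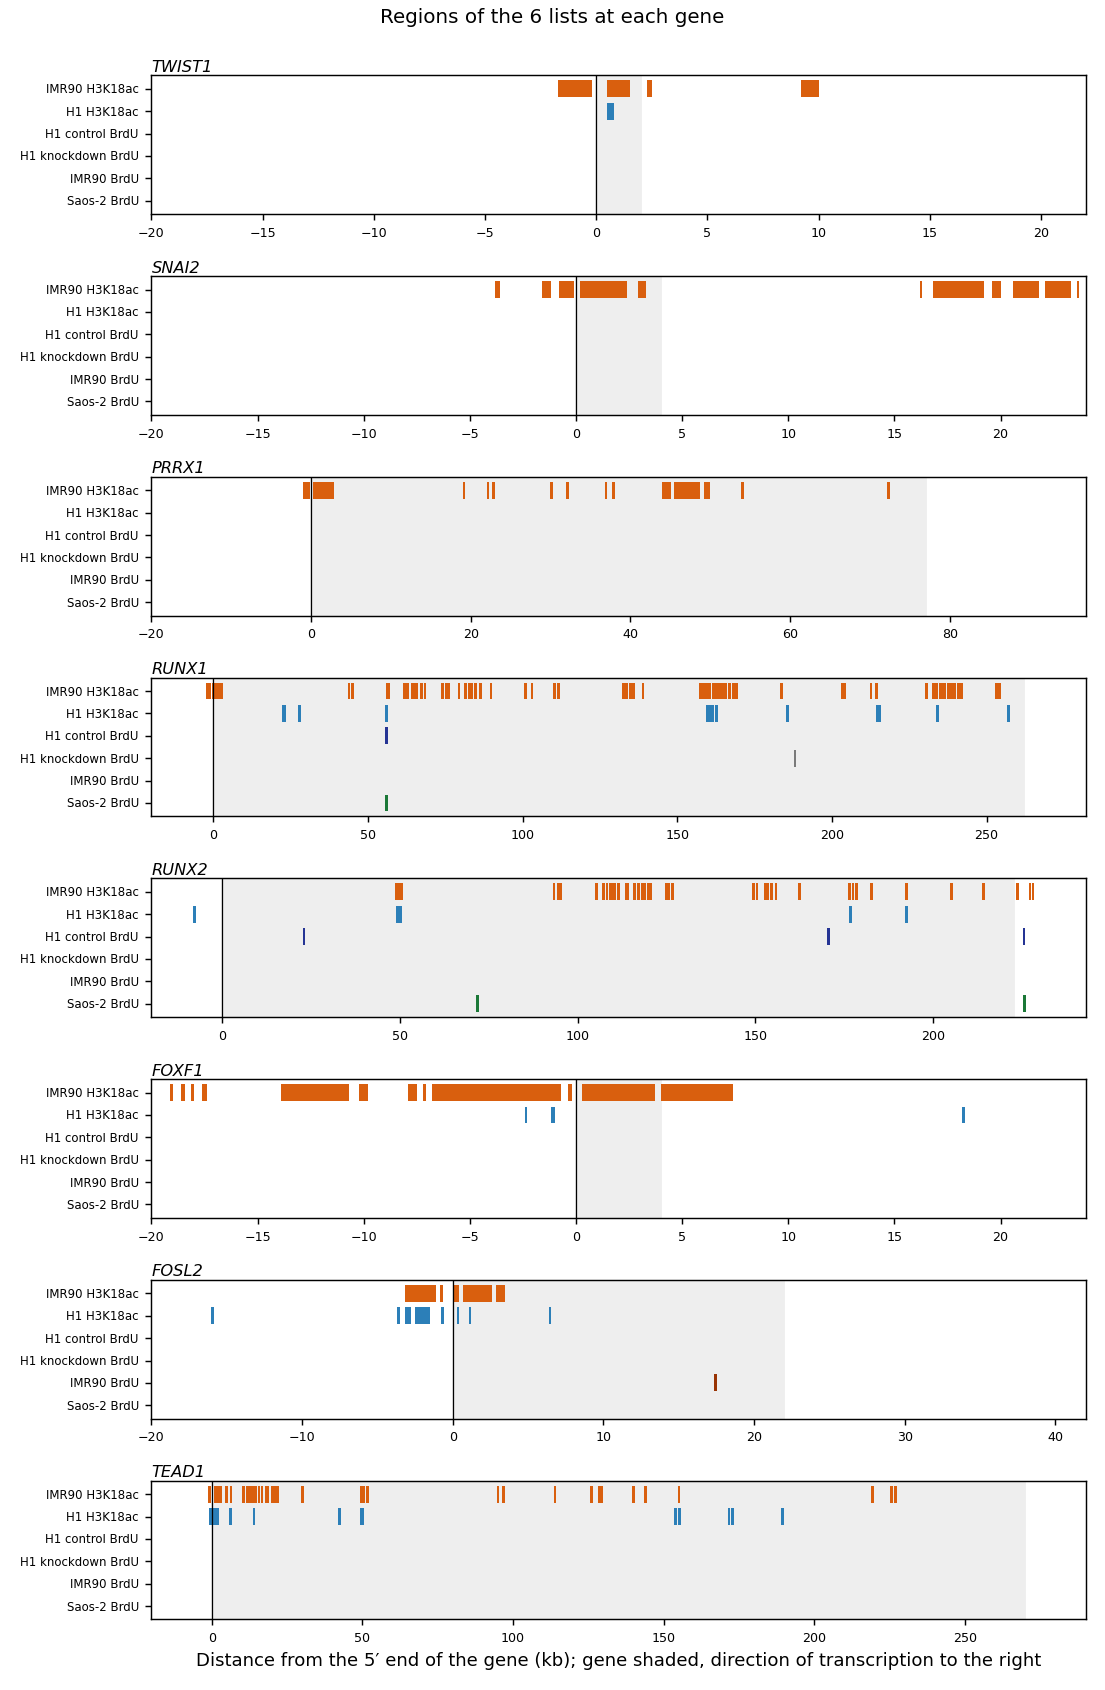
Regions of the 6 lists at each gene by distance from the 5′ end in kb, drawn in the direction of transcription with the gene shaded and 1 row per list; regions too narrow to see were widened. IMR90 H3K18ac (orange) lies at the 5′ end of every gene except RUNX2, makes a single cluster of 12 regions at FOXF1, and only RUNX1, RUNX2 and FOSL2 have BrdU regions.

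At the 5′ ends, the mark was found within 2 kb at 7 of the 8 genes in IMR90 and at 4 in H1. Of all tiles of 4 kb inside the 100 kb tiles with a region of any list, 9.54% held an IMR90 region and 9.72% an H1 region. Other promoters were not analysed here. The H1 genes were TWIST1, FOXF1, FOSL2 and TEAD1, so SNAI2, PRRX1 and RUNX1 were marked at the 5′ end in the fibroblast list alone. RUNX2 was marked there in neither. Only this outer 5′ end of each gene was scored. RefSeq lists starts inside RUNX1 and RUNX2 too, and marking at those starts was not analysed here. Both genes held H1 regions farther inside, so absence at the outer end does not mean that no promoter of theirs was marked.

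Promoter sequences are shown for RUNX2, where the 5′ end had no mark but a stretch inside the gene did, and for RUNX1 and FOSL2 beside it. They come from RefSeq (GRCh38.p14), whose promoter table holds 5 promoters of 4 of the 8 genes, and they give the 250 bases before each start. The table lists 2 starts for RUNX2, 93.9 kb apart. The second of the IMR90 clusters in RUNX2 lay 93.1 to 95.7 kb from the 5′ end in hg19, but positions were not carried between the builds. The RUNX1 start in the table lies inside the gene as RefSeq draws it, and its hg19 position was not used here. Capitals mark, on either strand, TGTGGT (the RUNX core site), TGANTCA (AP-1) and GGAATG (TEAD), and no capitals belong to 2 of these matches.
RUNX2 first start, chr6:45328080-45328329, plus strand: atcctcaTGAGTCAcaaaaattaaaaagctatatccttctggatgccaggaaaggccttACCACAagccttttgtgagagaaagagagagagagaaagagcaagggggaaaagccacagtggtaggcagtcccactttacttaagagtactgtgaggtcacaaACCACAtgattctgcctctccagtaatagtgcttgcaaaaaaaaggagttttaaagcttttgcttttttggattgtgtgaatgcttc
RUNX2 second start, chr6:45422025-45422274, plus strand: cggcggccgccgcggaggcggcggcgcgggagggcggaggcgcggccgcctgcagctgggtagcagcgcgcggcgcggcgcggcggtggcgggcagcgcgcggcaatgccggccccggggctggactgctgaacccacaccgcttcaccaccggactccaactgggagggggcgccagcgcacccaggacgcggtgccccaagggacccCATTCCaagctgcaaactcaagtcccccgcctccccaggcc
RUNX1, chr21:34888700-34888949, minus strand: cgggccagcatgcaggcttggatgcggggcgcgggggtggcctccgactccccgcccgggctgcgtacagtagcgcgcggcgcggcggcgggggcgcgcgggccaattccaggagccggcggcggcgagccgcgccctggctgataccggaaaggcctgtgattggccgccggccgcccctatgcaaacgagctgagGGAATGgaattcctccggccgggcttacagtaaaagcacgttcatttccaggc
FOSL2, chr2:28392608-28392857, plus strand: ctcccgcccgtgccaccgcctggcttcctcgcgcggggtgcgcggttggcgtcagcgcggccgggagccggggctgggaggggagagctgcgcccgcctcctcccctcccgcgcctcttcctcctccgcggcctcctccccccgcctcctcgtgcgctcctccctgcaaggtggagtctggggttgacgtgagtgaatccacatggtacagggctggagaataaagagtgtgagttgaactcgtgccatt

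The RUNX2 promoters differed in base composition. The first had 41.6% G and C and 0 CG dinucleotides, and the second 78% and 34. RUNX1, with 71.2% and 32, and FOSL2, with 69.6% and 24, were like the second, whereas PRRX1 had 50.8% and 6. The median over 35116 promoters was 58% and 11 CG dinucleotides. The first RUNX2 promoter held TGTGGT in 2 places, both as its complement, and TGANTCA once. TGTGGT was found in 11% of all promoters of this length and TGANTCA in 6.57%. GGAATG was found once in the second RUNX2 promoter and once in RUNX1, and in 11.9% of all promoters. The E-box CANNTG, the site of helix-loop-helix factors, was found in 3 of the 4 sequences shown, once in the first RUNX2 promoter, 2 times in the second and once in FOSL2, and in 61.8% of all promoters. That in the first RUNX2 promoter overlapped a TGTGGT match. CAGGTG, the form that SNAI factors prefer, and TATAAA were found in none of the 5 member promoters, and in 17.5% and 10.7% of all promoters. These are matches of letters in a short window and say nothing of binding.

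The IMR90 regions at these genes included more long ones than the list as a whole. Of the 166, 37 were 1 kb or longer (22.3%, Wilson 95% interval 16.6 to 29.2), against 11.9% (11.7 to 12.1) of the whole IMR90 list. The interval covers the counting of regions only, and neighbouring regions are not independent. RUNX1 had 14 long regions among its 54, TEAD1 5 of 29, SNAI2 4 of 11, FOXF1 4 of 12 and PRRX1 3 of 14. TWIST1 had 2 of 4, FOSL2 2 of 5 and RUNX2 3 of 37. Only at RUNX2 was the share below that of the whole list. The median length of the 166 regions, 300 bp, was that of the whole list, and 28.9% of them were a single window, against 29.2%. By score, 35 of the 166 (21.1%) were among the upper 10% of the list. In H1, 1 of the 44 regions (2.27%, 0.402 to 11.8) was 1 kb or longer, against 2.59% of the whole H1 list, and 61.4% were a single window, against 53.7%. By score, 2 of the 44 H1 regions (4.55%) were among the upper 10%, one at FOSL2 and one at RUNX2.

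**Figure D3:**
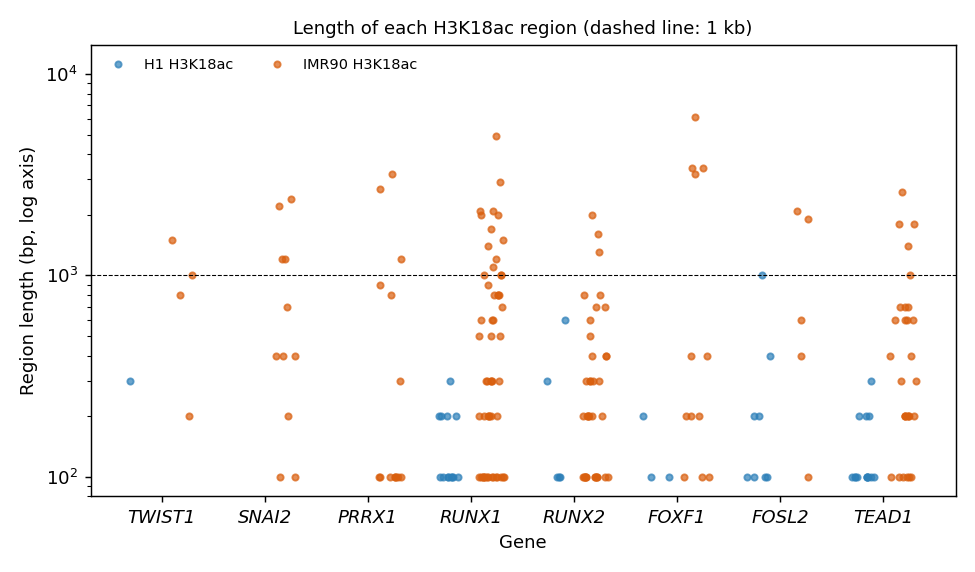
Length of each H3K18ac region in bp (log axis) by gene, for H1 (blue) and IMR90 (orange), 1 point per region, spread sideways for visibility; the dashed line marks 1 kb. Points above or on the line are almost all IMR90 regions (37 against 1 in H1), and those of FOXF1 and RUNX1 reach 6100 and 4900 bp.

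Some of the H1 regions lay where IMR90 was marked and others did not. Of the 44, 20 overlapped an IMR90 region (45.5%, 31.7 to 59.9), against 19.0% (18.7 to 19.3) of the whole H1 list, and 30 (68.2%) lay within 1 kb of one, against 28.9%. The windows were also covered more densely in IMR90 than most of the genome, and what part that has in the overlap was not tested. By gene, the overlapping share was 1 of 1 at TWIST1, 2 of 3 at FOXF1, 5 of 8 at FOSL2, 6 of 13 at RUNX1, 2 of 5 at RUNX2 and 4 of 14 at TEAD1. In the other direction, 18 of the 166 IMR90 regions (10.8%, 6.97 to 16.5) overlapped an H1 region, against 14.5% (14.3 to 14.8) of the whole IMR90 list. FOSL2 stood apart here, with 4 of its 5 IMR90 regions shared, whereas RUNX1 had 5 of 54 and RUNX2 3 of 37.

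In the BrdU lists, RUNX1, RUNX2 and FOSL2 had regions, and 5 genes had none in any list. H1 control had 4 regions at 2 genes, Saos-2 3 regions at 2 genes, and the H1 knockdown and IMR90 1 region at 1 gene each. The share of 100 kb tiles with a BrdU region was 17.2% for H1 control, 18.1% for Saos-2, 7.31% for the knockdown and 16.7% for IMR90, so 2, 2, 1 and 1 of the 8 genes were near those shares. The genes with regions in H1 control and Saos-2 were 2 of the 3 with windows over 200 kb. IMR90 had its only BrdU region in FOSL2, at chr2:28633401-28633500. It was a single window ranked 4153 of 5743 and lay 13900 bp from the nearest IMR90 H3K18ac region.

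One site in RUNX1 was called at the same coordinates in 2 cell lines. The share of all H1 control regions that overlap a Saos-2 region was not analysed here, so such sites cannot be called particular to these genes. The region chr21:36365901-36366100, inside the gene and 55.9 kb from the 5′ end, was found in both H1 control, at rank 963 of 5086, and Saos-2, at rank 1317 of 6272. It overlapped by 100 bp the H1 H3K18ac region chr21:36365801-36366000, which ranked 10514 and had the best rank of the 13 H1 regions of RUNX1. The nearest IMR90 H3K18ac region ended 100 bp from it. Neither the IMR90 BrdU list nor the knockdown list had a region there. The knockdown list is the shorter one, with 1755 regions against 5086 in H1 control. The share of all H1 control regions absent from the knockdown or IMR90 list was not analysed here. The knockdown list had a region of its own in RUNX1, chr21:36233801-36234000, at rank 407 of 1755 and 131900 bp from the H1 control region.

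RUNX2 had a similar pair just past its 3′ end. H1 control had chr6:45521501-45521800, at rank 1036, and Saos-2 had chr6:45521601-45521900, at rank 761, so 200 of their 300 bp coincided. The nearest H1 H3K18ac region lay 32900 bp from the H1 control region, and the nearest IMR90 region lay 1400 bp from it and 1300 bp from the Saos-2 region. The other 3 BrdU regions of RUNX2 were single windows of low rank found in 1 list each: chr6:45318901-45319000 and chr6:45466601-45466700 in H1 control, at ranks 4596 and 3742, and chr6:45367801-45367900 in Saos-2, at rank 5081. None of the 9 BrdU regions overlapped IMR90 H3K18ac, and 2 of them, the RUNX1 site as called in H1 control and in Saos-2, overlapped H1 H3K18ac. Over the whole BrdU lists, 2.05 to 2.44% of regions overlapped IMR90 H3K18ac, and the share in H1 H3K18ac was 8.75% for H1 control, 1.82% for the knockdown, 9.49% for IMR90 and 12.6% for Saos-2, so 9 regions are too few to set apart from these shares. With 1 library per group, whether a site called in 1 list would recur in the same line is unknown.

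**Figure D4:**
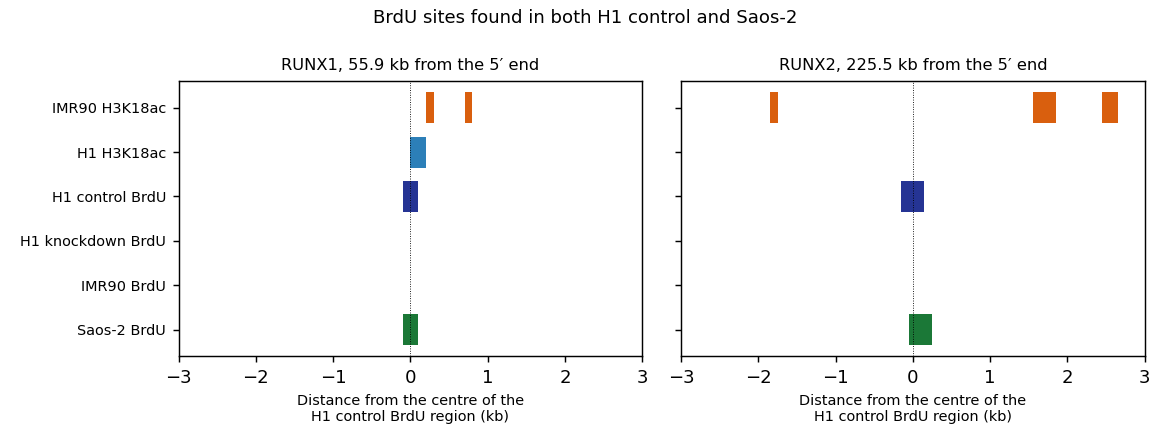
The 2 sites called in both H1 control and Saos-2 BrdU, within 3 kb of the centre of the H1 control region, in the direction of transcription, with 1 row per list. At RUNX1 both BrdU regions coincide and overlap an H1 H3K18ac region by 100 bp; at RUNX2 they share 200 bp and no H1 H3K18ac region is in view.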

How the data were processed

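For BrdU sequencing, 4 µg of labelled DNA were heated in alkali, sonicated and denatured, per the labels' protocols. Reads were aligned with Bowtie 0.12.7 to hg19, per the submitters' processing notes. The region caller, its threshold and the use of the 6 input samples, which have no list here, are steps not given in the sources used here. Each deposited list gives regions on a 100 bp grid and a whole number per region, taken as the authors' score in an unstated unit and used only to rank regions within their list. No read counts were used, so depth is unknown, and absence from a list may mean a signal just under a threshold.

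Gene positions came from the rule that defines the set, and strands from general knowledge, checked against the promoter table for 4 genes. The members, lists and measures were chosen with earlier results of these data known. All 8 genes are named, with the longest H3K18ac region and the one nearest to the 5′ end per list, and every BrdU region. A higher call needed 2 times the covered length. Regions shared needed 1 bp of overlap. Tiles (consecutive windows of fixed width) counted if they held a region of any list. The exception was the 4 kb tiles, all of which counted if they lay inside such a 100 kb tile. Clusters joined regions at most 5 kb apart and were added after the data had been seen. With no hg19 annotation in use, the planned lists of other mesenchymal and pluripotency genes were not analysed here. Alternatives were flanks of 0 and 50 kb, the upper 50% of each list by score, a fold of 3, numbers of regions, tiles of 50 and 200 kb, distances of 1 and 5 kb, an overlap of 50% and a length of 500 bp. Overlap and tile sums were tested on simulated data. Python 3.11.15, numpy 2.4.6, pandas 2.3.3, scipy 1.17.1 and matplotlib 3.10.9 were used.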

Additional observations from a re-analysis of the deposited data

How the results depend on the processing

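No paired analysis was possible because each group has 1 library. The 8 of 8 genes with more covered length in IMR90 stayed 8 with the genes alone, with 50 kb flanks and in the upper 50% by score, and became 7 with a fold of 3 or by number of regions, FOSL2 being the exception in both. The ratio of total covered length ran from 14.1 to 19.3, and 5′ end counts stayed 7 and 4 under all 3 alternatives. Within 1 kb, the H1 count of 4 depends on FOXF1, whose nearest H1 region lay 1000 bp away, exactly on the limit. As gene ends are known to 1 kb only, that count could differ. The shared share of H1 regions rose to 72.2% in the upper 50% by score, and that of IMR90 regions fell to 2.41% with 50% overlap. The whole-list shares under these settings were not analysed here, so whether the contrast with the lists changed is unknown. BrdU counts rest on few regions. With 50 kb flanks they became 7 in H1 control, 3 in IMR90 and 5 in Saos-2, and in the upper 50% by score 2 in H1 control and 0 in IMR90. Within 1 kb, 2 BrdU regions lay near IMR90 H3K18ac. Regions of 500 bp or longer made up 40.4% of the IMR90 members (33.4% of the whole list), and with the genes alone 0% of H1 regions reached 1 kb. The cause was not tested for any of these. Unknown depth limits every absence from a list.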

Other observations

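Beyond the 20 kb flanks, the BrdU region nearest to each 5′ end placed the genes in different surroundings. Upstream of FOXF1, about 46 kb from the 5′ end, all 3 cell lines had a BrdU region at the same place: chr16:86497801-86497900 in H1 control, chr16:86497701-86498000 in IMR90 and chr16:86497701-86498200 in Saos-2, with ranks 1480, 487 and 1591. The nearest knockdown region to FOXF1 was another, 77.6 kb downstream at chr16:86621601-86621900, with rank 60 of 1755. Upstream of SNAI2, 47.3 kb from the 5′ end, H1 control and Saos-2 had regions that both began at chr8:49881301, and the nearest IMR90 region lay 194.3 kb away on the other side of the gene. Upstream of TEAD1, 33.4 kb from the 5′ end, H1 control and IMR90 had the same single window, chr11:12662501-12662600, at ranks 3137 and 4704, and Saos-2 had none nearer than 506.1 kb. How often BrdU regions coincide between cell lines over the whole lists was not analysed here, so these shared sites may be ordinary for the lists.

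No BrdU region of any list lay within the 50 kb flanks of PRRX1 or TWIST1. For PRRX1 the nearest to the 5′ end was 1041 kb away in H1 control, 1042 kb in Saos-2, 2156 kb in the knockdown and 2999 kb in IMR90. For TWIST1 it was 454.6 kb away in the knockdown, 978.7 kb in H1 control, 1569 kb in Saos-2 and 3358 kb in IMR90.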
